A study of Mus musculus with 2 samples.

Results

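The Elane-high neutrophil progenitors are a class of single cells picked out by the transcript of neutrophil elastase. A cell barcode was kept when it held at least 500 genes and at most 10% mitochondrial UMIs (unique molecular identifiers, each standing for 1 captured RNA molecule). A kept barcode entered the class when Elane reached 6000 CPM (counts CPM, here UMIs of a gene scaled to the total of the cell), when Ms4a3 and Cebpe together had at least 1 UMI, and when F13a1, a gene of monocyte progenitors, had at most 1 UMI. The class held 252 of the 5302 kept barcodes of the study, with 56 of 2666 at day 0 and 196 of 2636 at day 28. These values chose the cells, so the levels of Elane, Ms4a3, Cebpe and F13a1, and of the genes that go with them, are given as descriptions.

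Cells positive for YFP and negative for CD11b had been sorted by flow cytometry from digested hindlimb muscle of Fsp1-Cre: R26R-EYFP mice, in which Cre recombinase under the Fsp1 promoter (Fsp1 is the protein of S100a4) switches on a yellow fluorescent protein for good in a cell and its descendants. The day 0 library came from mice without surgery and the day 28 library from mice 28 days after hindlimb ischemia surgery, an operation that cuts the blood supply of the leg. Both groups carried the same alleles. Each group was 1 library of the 10x single-cell assay, from which 2668 and 2653 barcodes were deposited beside a stated capture of 5000 cells. The labels give neither the age of the mice nor how many were pooled, and since no spread between animals could be measured, no test was made. All intervals are 95% intervals that cover counting error only.

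Neutrophils arise from granulocyte-monocyte progenitors through the promyelocyte, myelocyte and metamyelocyte stages. The granules are filled in that order: the azurophil (primary) granule proteins, such as neutrophil elastase, proteinase 3, cathepsin G and myeloperoxidase, are made by promyelocytes, whereas lactoferrin, the cathelicidin and the other specific (secondary) granule proteins follow in myelocytes, under the transcription factor C/EBP-epsilon. This takes place in bone marrow, and CD11b (the product of Itgam) appears on the surface as neutrophil precursors mature, so that a sort against CD11b leaves early rather than late stages.

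Elane, Prtn3, Mpo and Ctsg encode the 4 azurophil granule enzymes described most fully here, and Fcnb, the gene of ficolin B, had one of the steepest gradients inside it. The 250 bases before the RefSeq start of these 5 genes (build GRCm38.p6, each written 5′ to 3′ on the strand of its gene) are printed to show what the co-expressed genes share next to their starts. Capitals mark AGGAAGT, the core bound by ETS factors such as PU.1, TTGCNNAA, the core bound by C/EBP factors, and CAACGG, a form of the MYB site, each searched on both strands, so that a capital run can be the reverse complement of these letters.
Elane, chr10:79886062-79886311, plus strand: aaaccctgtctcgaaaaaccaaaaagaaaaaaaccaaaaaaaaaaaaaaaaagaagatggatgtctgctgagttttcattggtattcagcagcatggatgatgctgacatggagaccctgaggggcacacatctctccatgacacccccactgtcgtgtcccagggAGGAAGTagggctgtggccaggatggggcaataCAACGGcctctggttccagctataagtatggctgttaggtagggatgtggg
Prtn3, chr10:79879417-79879666, plus strand: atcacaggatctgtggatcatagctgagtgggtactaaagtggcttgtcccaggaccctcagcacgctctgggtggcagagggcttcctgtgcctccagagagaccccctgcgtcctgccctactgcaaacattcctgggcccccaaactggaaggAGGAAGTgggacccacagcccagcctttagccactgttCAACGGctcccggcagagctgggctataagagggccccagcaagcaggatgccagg
Mpo, chr11:87793534-87793783, plus strand: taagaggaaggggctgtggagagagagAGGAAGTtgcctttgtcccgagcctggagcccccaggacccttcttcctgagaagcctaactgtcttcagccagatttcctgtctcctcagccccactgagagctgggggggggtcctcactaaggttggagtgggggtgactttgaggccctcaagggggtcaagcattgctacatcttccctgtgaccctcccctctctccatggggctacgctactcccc
Ctsg, chr14:56102575-56102824, minus strand: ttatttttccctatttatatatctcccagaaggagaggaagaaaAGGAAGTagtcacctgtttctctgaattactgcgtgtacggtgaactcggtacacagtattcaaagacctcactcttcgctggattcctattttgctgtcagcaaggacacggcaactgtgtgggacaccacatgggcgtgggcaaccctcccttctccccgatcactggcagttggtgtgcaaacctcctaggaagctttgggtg
Fcnb, chr2:28084879-28085128, minus strand: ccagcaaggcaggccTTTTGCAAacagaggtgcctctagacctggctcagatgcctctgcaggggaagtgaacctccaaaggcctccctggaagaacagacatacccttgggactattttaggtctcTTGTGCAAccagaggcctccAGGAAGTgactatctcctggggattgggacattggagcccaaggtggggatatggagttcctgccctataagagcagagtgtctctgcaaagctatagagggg

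All 5 windows hold AGGAAGT once, and the motif was chosen with these windows in view. Among 32851 RefSeq windows of this length, 7.69% hold AGGAAGT, 9.56% hold TTGCNNAA and 4.05% hold CAACGG. Over the 18 genes of the azurophil granule list, 16 had a window, 6 of which held AGGAAGT (Elane, Prtn3, Mpo, Ctsg, Cst7 and Ctsc). CAACGG stood in 3 of the 16 windows (Elane, Prtn3 and Ctsd) and TTGCNNAA in 1 (Plac8). The ETS and MYB matches of Elane and Prtn3, which are neighbours on chromosome 10, lie at nearly the same distance from the start: AGGAAGT begins 84 bases before the start in Elane and 94 in Prtn3, and CAACGG begins 51 and 56 bases before it. Fcnb alone among the 5 holds the C/EBP core, in 2 places. All distances are from the RefSeq start. The gene coordinates given further on are GENCODE ones, whose starts are not the same as the RefSeq starts for Elane, Prtn3, Mpo and Fcnb. These matches are descriptions of the letters and not measured binding sites.

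Barcodes of the class were among the richest of each library. They held a median of 23029 UMIs and 4067 genes at day 0, and 21543.5 UMIs and 3744.5 genes at day 28, against medians of 4778.5 and 11874 UMIs in the other barcodes. Mitochondrial UMIs were at a median of 2.06% and 2.31% in the class. In all, the class held 1279473 UMIs at day 0 and 4349966 at day 28. The libraries shared 13 barcode sequences, 2 of which were in the class in either library and none in both.

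All 6 markers given for the class, Elane, Cebpe, Ms4a3, Prss57, Mpo and Wfdc21, were detected in most of its cells. Elane, Mpo and Ms4a3, the last a membrane protein of granulocyte-monocyte progenitors, had UMIs in all 56 and all 196 cells. Prss57, a serine protease of azurophil granules, had a UMI in 54 and 185 cells, Cebpe in 51 and 179, and Wfdc21, a small whey acidic protein domain protein of neutrophil precursors, in 41 and 173. In lymphocytes, which are shallower, a Cebpe UMI was found in 0.532% and 3.80% of barcodes, a Prss57 UMI in 1.48% and 10.5% and a Wfdc21 UMI in 1.42% and 4.51%. Pooled over both libraries, Wfdc21 stood 10.8 times, Cebpe 9.70 times, Elane 8.83 times, Prss57 8.52 times, Ms4a3 7.54 times and Mpo 5.53 times above the other barcodes in CPM of the UMIs summed over cells. The 15 genes that stood highest above the other barcodes at 200 CPM or more also included Pglyrp1, a peptidoglycan recognition protein of granules (7.75 times), Cd63, a granule membrane tetraspanin (7.25 times), S100a8 (6.26 times), Trem3, Pde4d, Ctsg, Rgcc, Nkg7 and S100a9. Within each library the ratios differed: Elane stood 17.6 times above the other barcodes at day 0 and 6.85 times at day 28, Cebpe 21.9 and 7.44 times, Mpo 11.1 and 4.17 times, and Wfdc21 10.7 and 10.6 times. Elane had the most UMIs of any gene in the class, at 1.19% of all its UMIs.

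Elane UMIs were also found in cells that should lack the gene. Lymphocytes, taken as barcodes with at least 3 UMIs of Cd3d, Cd3e and Cd79a and under 1000 CPM Elane, held Elane at 36.4 CPM in the day 0 library and 153 CPM in the day 28 library, and their median depths were 4183.5 and 7523 UMIs. The lowest Elane levels inside the class were 6208, 6713 and 7107 CPM at day 0 and 6178, 6234 and 6280 at day 28. The nearest barcodes outside stood at 5923, 5735 and 5617, and at 5990, 5975 and 5884. No gap separates the class from the barcodes below it. All 88 and 272 barcodes that reached the Elane minimum had a UMI of Ms4a3 or Cebpe, so that criterion removed none, whereas the F13a1 limit removed 32 and 76.

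**Figure D1:**
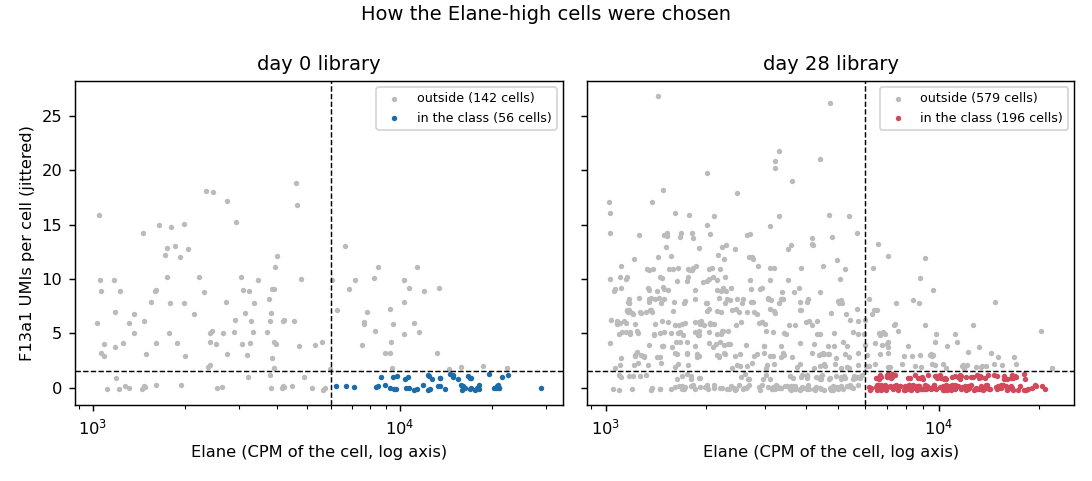
Each point is a kept barcode with at least 1000 CPM Elane, by its Elane level (CPM of the cell, log axis) and its F13a1 UMIs (jittered), in the day 0 library (left) and the day 28 library (right). Dashed lines mark the limits of 6000 CPM Elane and 1 F13a1 UMI; the 56 and 196 coloured barcodes form the class and run into the grey ones without a gap.

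The class made up 2.101% of the kept barcodes at day 0 (exact Clopper-Pearson interval 1.59% to 2.72%) and 7.44% at day 28 (6.46% to 8.50%). The share at day 28 was 3.54 times that at day 0 (2.62 to 4.85). Both shares depend on which other cells the sort and the droplets recovered: day 0 held 1692 barcodes that met the lymphocyte criterion and day 28 held 421, and the shallowest barcode of the day 0 library had 3001 UMIs against 4175 at day 28. Among barcodes with at least the lowest day 28 total, the shares were 3.41% and 7.44%, a ratio of 2.18. With an Elane minimum of 12000 CPM, 37 and 67 cells remained and the ratio was 1.83. With 1 library a group, the part of these differences that lies between animals cannot be told apart from that between libraries.

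Transcripts that bear on the sort, and that of the general leukocyte marker CD45, were low in the class. S100a4, whose promoter drives the Cre, was at 5.47 CPM in the day 0 sum and 13.6 CPM in the day 28 sum, against 242 and 257 CPM in the other barcodes. At least 1 S100a4 UMI was found in 5 of 56 cells (8.93%, interval 2.96% to 19.6%) and in 48 of 196 cells (24.5%, 18.6% to 31.1%). After every cell was thinned to 4000 UMIs, the counts were 1 and 13. In lymphocytes, at their lower depth, S100a4 had a UMI in 14.01% and 23.3% of barcodes and a level of 125 and 145 CPM, so the shares in the class are not read as a difference. The YFP label follows past activity of the promoter as well as present activity. Itgam, the gene of CD11b, was at 10.2 and 20.2 CPM, and Ptprc, the gene of CD45, at 53.1 and 41.6 CPM.

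Azurophil granule genes were abundant: in UMIs, Elane ranked 1 among all genes, Prtn3 16, Mpo 37, Plac8 45 and Ctsg 61. The 18 genes of the list added up to 44697 CPM at day 0 and 38306 CPM at day 28, and to 5990 and 10413 CPM in the other barcodes. Elane (chr10:79886247-79888215 in mm10) had a median of 13818 CPM over the day 0 cells, with a range of 6208 to 28828, and of 10404 over the day 28 cells, with a range of 6178 to 20898. The lower ends of these ranges are set by the limit of 6000 CPM that chose the cells. The summed levels of Elane were 14312 and 11254 CPM, a ratio of day 28 to day 0 of 0.786 (0.7731 to 0.7998).

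Mpo (chr11:87793581-87804413), the enzyme that makes hypochlorous acid from hydrogen peroxide, was lower at day 28. Its median was 6790 CPM over the day 0 cells, with quartiles of 5374 and 8881 and a range of 1885 to 18195, and 3508 CPM over the day 28 cells, with quartiles of 2560 and 5388 and a range of 677 to 11335. The ranges overlap, but the upper quartile at day 28 only reached the lower quartile at day 0. Summed over cells, Mpo was at 7335 and 4262 CPM, a ratio of 0.581 (0.567 to 0.596). Mpo lies short of the 2-fold limit, and its ratio was 0.570 without the cells that held much RNA of another lineage, which are described further on.

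Prtn3 (chr10:79874476-79883174), which encodes proteinase 3, went the other way. Its median was 5235 CPM at day 0, over a range of 1846 to 10836, and 6765 CPM at day 28, over a range of 582 to 12788. The ratio of the summed levels was 1.24 (1.21 to 1.27). Ctsg, the gene of cathepsin G, had medians of 4791 and 3279 CPM over ranges of 277 to 9829 and 672 to 10240, and a summed ratio of 0.830 (0.807 to 0.855). Thus the 4 main serine protease and peroxidase genes of the same granule did not move as a block, although the ranges of all 4 overlap between libraries.

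The opposite ratios of Mpo and Prtn3 were also present in neighbouring cells of the same libraries. Among the Elane-high barcodes with 2 or more F13a1 UMIs, Mpo was at 5830 and 4163 CPM (ratio 0.714) and Prtn3 at 4702 and 6018 CPM (1.28). In barcodes with 3000 to 6000 CPM Elane and at most 1 F13a1 UMI, the ratios were 0.654 for Mpo and 1.25 for Prtn3. In the F13a1 progenitors, which had 2 or more F13a1 UMIs, at least 10 UMIs of Elane, Mpo, Prtn3 and Ctsg together and under 6000 CPM Elane, they were 0.679 and 1.199. These groups come from the same 2 libraries as the class, so they are not independent of it.

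The remaining azurophil granule genes stayed within 2-fold. Of the 18 genes, 17 reached a mean of 50 CPM, and 0 of 17 were past 2-fold either way, with a median log2 ratio of -0.16. Over all 2277 genes at that level, 11 reached 2-fold higher (0.483%) and 31 reached 2-fold lower (1.36%), 1.84% in either direction, and the median log2 ratio was -0.07. Ms4a3 was at 1887 and 1694 CPM, Prss57 at 406 and 322 CPM, Cd63 at 806 and 775 CPM, and Srgn, the proteoglycan serglycin that holds proteases in the granule, at 2290 and 2281 CPM. Gstm1, a glutathione transferase, was lower at 872 and 581 CPM (ratio 0.666, 0.621 to 0.716). Ctsc, the protease that activates the granule serine proteases, was scarce, at 25.01 and 21.6 CPM.

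**Figure D2:**
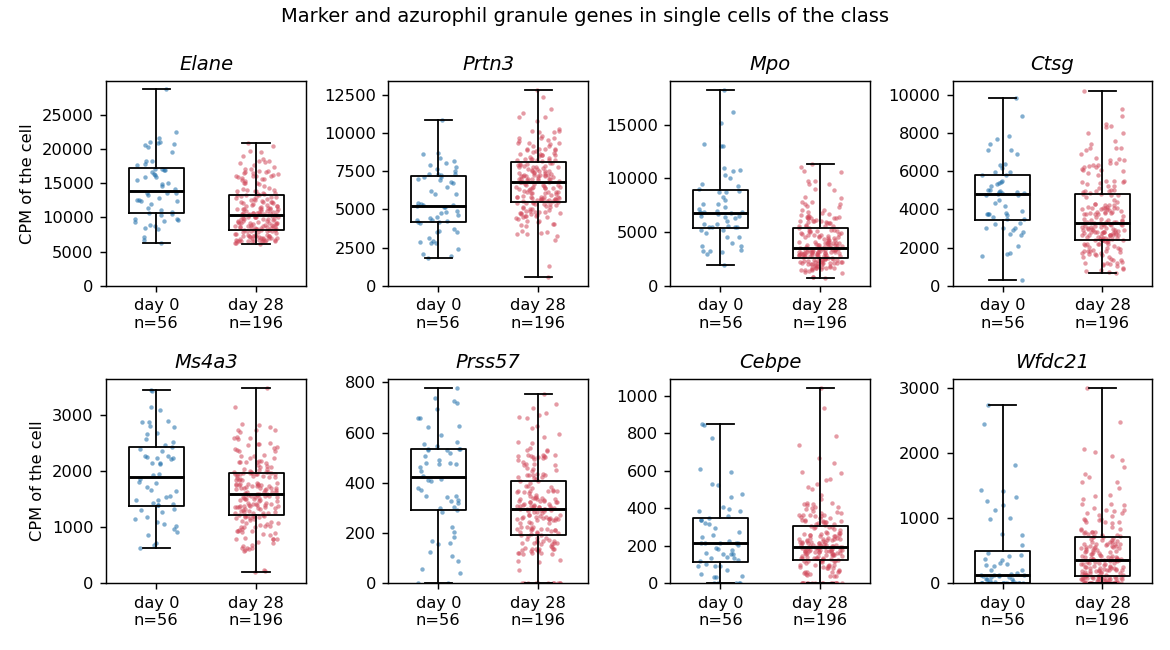
Points are single cells of the class (56 at day 0, 196 at day 28), with the level of each gene in CPM of the cell; boxes give the quartiles, the thick line the median and whiskers the full range. Medians of Mpo were 6790 and 3508 CPM and those of Prtn3 5235 and 6765, while the medians of Cebpe, 213 and 197, were nearly level; the floor of Elane is set by the rule.

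Specific granule genes split into members at readily detected levels and members with almost no UMI. Ltf (lactoferrin) had 0 UMIs at day 0 and 2 at day 28, Mmp8 (neutrophil collagenase) 0 and 2, and Olfm4 (olfactomedin 4) 1 and 0. The limit that a count of 0 allows for Ltf was 3 UMIs of 1279473 at day 0. Pglyrp1, in contrast, was at 488 and 446 CPM, Wfdc21 at 395 and 444 CPM, Hp (haptoglobin) at 385 and 355 CPM, Fcnb at 183 and 165 CPM, and Lcn2 (lipocalin 2) at 49.2 and 44.6 CPM. Of the 20 genes of the list, 9 reached 50 CPM, 1 of which was at least 2-fold higher at day 28 (Camp) and 1 at least 2-fold lower (Ngp).

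In both genes, single cells held a large share of the UMIs. Camp, the cathelicidin, was at 63.3 and 392 CPM (ratio 6.19, 4.96 to 7.84), and 1 cell held 61.7% of its UMIs at day 0 and 1 cell 26.6% at day 28. Its median was 0 CPM in both libraries, and 11 of 56 and 78 of 196 cells had a UMI. The ratio was 11.8 without the top cell of each library. Lymphocytes held Camp at 58.1 and 12.6 CPM, with a UMI in 3.25% and 10.9% of barcodes, so single UMIs can be background. The sum of the class was close to that of lymphocytes at day 0 (63.3 CPM) and above it at day 28 (392 CPM). Both day 0 sums rest on few barcodes, so their closeness is not read as a level of background. Without the cells rich in RNA of other lineages, Camp was at 22.4 and 420 CPM, a ratio of 18.8 (12.6 to 29.4). Ngp, neutrophilic granule protein, was at 256 and 88.7 CPM, with 78.7% and 73.6% of its UMIs in 1 cell.

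The late neutrophil list summed to 7858 and 7950 CPM, of which S100a8 and S100a9 made up most, and 5 of its 20 genes reached 50 CPM, with 0 of 5 past 2-fold. Its receptor and gelatinase genes were nearly absent. Mmp9 (gelatinase) and Fpr1 (the formyl peptide receptor) had no UMI in either library, Ly6g had 0 and 1, and Cxcr2, the chemokine receptor of mature neutrophils, 1 and 12. Csf3r, the receptor for granulocyte colony-stimulating factor, was at 50.02 and 56.1 CPM. Lyz2 (lysozyme), a gene of monocytes and later neutrophils, was at 229 and 179 CPM, which is 0.0986 times its level in the other barcodes.

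Among the transcription factors named here, Spi1, Myb and Cebpe had the highest levels and the monocyte factors Irf8 and Klf4 the lowest. Cebpe was at 237 and 223 CPM (ratio 0.943, 0.828 to 1.08), an interval that includes 1. Spi1, the gene of PU.1, was at 308 and 322 CPM and Myb at 273 and 251 CPM. Gfi1, which represses monocyte genes in granulocyte progenitors, was at 80.5 and 56.6 CPM (ratio 0.702, 0.556 to 0.893), and Cebpa at 120 and 74.5 CPM (0.619, 0.509 to 0.755). Irf8, the main factor of the monocyte and dendritic branch, was at 54.7 and 34.9 CPM, and Klf4, another monocyte factor, had only 3 and 34 UMIs. Of the 30 lineage factors, 10 reached 50 CPM and 0 of 10 were past 2-fold, with a median log2 ratio of -0.12.

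Among the receptor and adhesion genes at 50 CPM or more, Ly6c2 had the ratio farthest from 1. Ly6c2, whose product Ly6C marks monocytes and many myeloid progenitors, had medians of 2062 CPM at day 0 (range 0 to 5702) and 987 at day 28 (range 60.0 to 8165), and sums of 2078 and 1081 CPM (ratio 0.520, 0.496 to 0.546). The same gene was at 3074 and 1501 CPM in the F13a1 progenitors and at 1100 and 880 CPM in the other barcodes. Clec12a, an inhibitory lectin of myeloid cells, was at 649 and 543 CPM, Cd24a at 578 and 552 CPM and Fcgr3 at 243 and 166 CPM. Kit, the stem cell factor receptor, was at 28.1 and 36.6 CPM and Cd34 at 59.4 and 29.0 CPM. Of the 35 receptor and adhesion genes, 10 reached 50 CPM, and 0 of 10 were past 2-fold.

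Genes of the phagocyte oxidase, the enzyme that makes superoxide, were expressed with 1 low member. Cyba, the small membrane subunit, was at 508 and 526 CPM, Rac2 at 725 and 699 CPM, Ncf1 at 125 and 125 CPM and Ncf4 at 108 and 141 CPM, whereas Cybb, the catalytic subunit, was at 29.7 and 43.9 CPM. UMIs are counted at the 3′ end of a transcript, so these CPM are not divided by length. Of the 7 oxidase genes, 6 reached 50 CPM and 0 of 6 were past 2-fold, with a median log2 ratio of 0.02.

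Cell cycle genes were expressed in both libraries. Top2a (topoisomerase II alpha) was at 118 and 133 CPM and Mki67, a protein of dividing nuclei, at 46.1 and 42.5 CPM. Of 26 genes of the G2 and M phases, 13 reached 50 CPM and 0 of 13 were past 2-fold, with a median log2 ratio of 0.04, and of 24 S phase genes 18 reached it and 0 of 18 were past 2-fold, with a median of -0.34. Mcm3, a subunit of the replicative helicase, was at 119 and 73.3 CPM (ratio 0.617), and Ube2c, which feeds the anaphase-promoting complex, at 116 and 199 CPM (1.72). No phase was called for single cells.

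Lists of general cell functions moved little. The endoplasmic reticulum and secretion list had 0 of 23 genes past 2-fold and a median log2 ratio of 0.08, with Calr (calreticulin) at 1671 and 1767 CPM and Hsp90b1, a chaperone of the reticulum, at 288 and 414 CPM (ratio 1.44). Oxidative phosphorylation genes had 0 of 23 past 2-fold and a median of -0.25, with Uqcrb, a subunit of complex III, the lowest at 539 and 306 CPM (0.569). Ribosome biogenesis genes had 0 of 18 past 2-fold and a median of -0.23, with Npm1 (nucleophosmin) at 1710 and 1965 CPM. Glycolysis and hypoxia genes had 1 of 10 past 2-fold, Eno1 (enolase 1), and a median of -0.13. Some lists of other lineages moved more. At least 2-fold lower were 1 of 5 monocyte genes (median -0.94), 3 of 4 MHC class II genes (-1.17) and 4 of 6 erythroid genes (-1.69). Over all genes compared, 1.36% were. In the other barcodes, the monocyte list summed to 9085 and 6339 CPM and the MHC class II list to 7361 and 1458 CPM.

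Most genes past 2-fold in the class were past it in the rest of the libraries too. Of the 31 genes that were at least 2-fold lower, 19 were also at least 2-fold lower in the other barcodes, and of the 11 that were at least 2-fold higher, 6 were also at least 2-fold higher there. Of all 2277 genes, 1.62% reached 2-fold lower and 1.45% reached 2-fold higher in the other barcodes. Histone gene Hist1h2ap was at 329 and 10.6 CPM in the class and at 208 and 10.9 CPM in the other barcodes. The predicted gene Gm10709 was at 897 and 12.2 CPM in the class and at 785 and 10.9 CPM outside it. Eno1 was at 685 and 227 CPM in the class and at 334 and 117 CPM outside it. Rnaset2a and Rnaset2b, near-identical copies of a ribonuclease gene between which reads can be split, were 3.40 and 3.32 times as high at day 28 in the class and 2.78 and 2.76 times in the other barcodes. What sets these apart between the libraries was not tested.

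A few genes past 2-fold in the class were near a ratio of 1 in the other barcodes. Alas1, the first enzyme of haem synthesis in cells other than red cell precursors, was at 324 and 122 CPM in the class (ratio 0.376, 0.330 to 0.428) and at 27.6 and 27.7 CPM in the other barcodes, and its ratio in the F13a1 progenitors was 0.499. Its median over cells was 249 CPM at day 0 (range 0 to 1086) and 85.9 at day 28 (range 0 to 1113), so the ranges overlap. Myeloperoxidase, whose gene was lower as well, carries a haem group, and a link between Alas1 and Mpo was not tested. Ccl9, a chemokine gene of myeloid cells, was at 209 and 103 CPM in the class and at 111 and 128 CPM outside it. Pim1, a kinase induced by cytokine receptors, was at 32.8 and 69.0 CPM in the class and at 290 and 285 CPM outside it. These differences between the class and the other barcodes were not tested.

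The 12 genes with the lowest ratio at 100 CPM or more, ribosomal, mitochondrial, haemoglobin, sex-linked and unnamed genes aside, were Hist1h2ap, Eno1, Ngp, Alas1, Cd74, Snrpd3, Prdx1, Serinc3, Ccl9, Tmsb10, Ly6c2 and Ly6e. The 12 with the highest were Prg2, Camp, Rnaset2a, Rnaset2b, Slpi, Nfkbia, Ube2c, Wdr89, Ppp3ca, Tpt1, Smc4 and Mtdh. Prg2, the eosinophil major basic protein, was at 5.47 and 282 CPM, and 1 day 28 cell held 85.2% of its UMIs. Slpi, a leukocyte protease inhibitor, was at 306 and 693 CPM, with 72.3% of its day 28 UMIs in 1 cell, and its ratio without the top cells was 0.670. Nfkbia, the inhibitor of NF-kappa-B, was at 120 and 208 CPM (ratio 1.73, 1.45 to 2.06) and no cell held more than 7.79% of its UMIs.

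**Figure D3:**
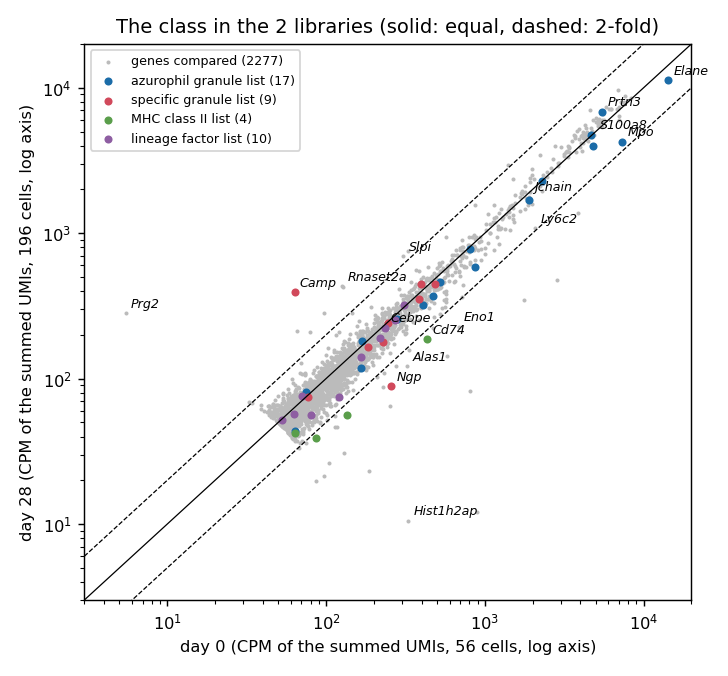
Each point is 1 of the 2277 genes with a mean of at least 50 CPM in the class, by its level in the day 0 sum (horizontal, 56 cells) and the day 28 sum (vertical, 196 cells), on log axes; the solid line is equality, the dashed lines are 2-fold and colours mark 4 gene lists. Azurophil granule genes lie between the dashed lines, while Camp and Prg2 lie above them and Ngp, Cd74 and Hist1h2ap below.

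RNA of other lineages was concentrated in a minority of the cells. In 8 of 56 day 0 cells and 12 of 196 day 28 cells, a list of erythroid, megakaryocyte, B-lineage, T or NK, MHC class II, fibroblast, endothelial or muscle genes reached 2000 CPM. At day 0, 3 cells did so for the erythroid list, up to 111390 CPM in 1 cell, while the median over cells was 180 CPM. The MHC class II list did so most often at day 0, in 5 cells, and in 7 cells at day 28. Its highest levels were only 7565 and 7896 CPM, against medians of 410 and 172 CPM. The B-lineage list reached 59161 CPM in 1 day 0 cell and 57759 in 1 day 28 cell, against medians of 109 and 162 CPM, and Jchain, the joining chain of secreted antibodies, made up most of it. Fibroblast, endothelial and muscle genes stayed under 2000 CPM in all cells, with list sums of 40.6, 21.1 and 24.2 CPM at day 0 and 34.9, 16.1 and 11.03 CPM at day 28, and Pdgfra, Kdr and Des had no UMI in the class.

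Leaving these cells out kept 48 and 184 cells, in which Elane stood at 14435 and 11468 CPM and Mpo at 7624 and 4345 CPM. Hbb-bs (beta globin) changed from 2868 and 480 CPM to 61.5 and 91.9 CPM, which turned its ratio from 0.167 to 1.49. Cd74 (the MHC class II invariant chain) changed from 431 and 187 CPM to 120 and 37.2 CPM and stayed lower at day 28, with a ratio of 0.310, beside 0.153 in the other barcodes. Jchain changed from 1887 and 1783 CPM to 16.8 and 106 CPM. Hbb-bs, Cd74 and Jchain are on the lists that chose the cells left out, so the fall in their levels was set by that choice. Slpi was then at 319 and 157 CPM, and Ngp at 61.5 and 95.9 CPM, both with the direction reversed. Whether such barcodes held 1 cell or more was not tested.

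Levels inside the class varied widely for S100a8 and S100a9, the subunits of calprotectin, an abundant protein of the neutrophil cytosol. S100a8 had a median of 673 CPM at day 0 (range 0 to 71730) and of 2326 at day 28 (range 0 to 90127), and S100a9 of 53.3 and 230 CPM. The summed levels differed less: S100a8 was at 4879 and 4768 CPM (ratio 0.977, 0.9498 to 1.01), and 1 day 0 cell held 20.7% of its UMIs and 1 day 28 cell 11.9%. Without the cells rich in other lineages the sums were 3331 and 4735 CPM, a ratio of 1.42. At least 1 S100a8 UMI was found in 47 of 56 cells (83.9%, 71.7% to 92.4%) and 189 of 196 (96.4%, 92.8% to 98.6%), and after thinning to 4000 UMIs in 36 (64.3%) and 168 (85.7%). Lymphocytes held S100a8 at 188 and 86.4 CPM, with a UMI in 12.6% and 50.4% of barcodes, so single UMIs can be background.

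Cells were therefore ordered by the sum of S100a8 and S100a9 and cut into 3 tiers of 18 cells at day 0 and 65 at day 28, with the remainder in the middle. The tiers are ranges and not types: 4 cells at day 0 and 14 at day 28 lay within 20% of the upper limit, and as many of the lower one. The low tier ended at 155 CPM at day 0 and 816 at day 28, and the high tier began at 2149 and 5142. Median UMIs were 24188.5 in the low and 21366.5 in the high tier at day 0, and 22619 and 18918 at day 28. Of 1221 genes with a mean of 100 CPM, 19 reached 2-fold higher in the high than in the low tier in both libraries (1.56%) and 4 reached 2-fold lower in both (0.328%).

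Specific granule genes were higher at the high end of the order. Of the 8 in the comparison, 6 were at least 2-fold higher in both libraries, with list medians of 3.81 and 2.25 on the log2 scale, against -0.09 and -0.07 over all 1221 genes. After thinning to 4000 UMIs, Fcnb, Camp and Ngp were no longer called. A gene without a UMI in the low or high tier of a library left that comparison. Their loss is therefore not read as a missing gradient. Fcnb went from 4.64 through 24.7 to 548 CPM from the low to the high tier at day 0 and from 13.8 through 125 to 381 CPM at day 28. Wfdc21 went from 16.3 through 186 to 1031 CPM at day 0 and from 110 through 397 to 876 CPM at day 28. Both genes were thus highest in the high tier in either library. Their middle tier was higher at day 28, but the tiers were cut within each library. The middle tier of day 28 also covered higher levels of S100a8 and S100a9, so this is not read as a difference between libraries. Pglyrp1 went from 255 to 788 CPM and from 296 to 624 CPM, Hp from 228 to 682 CPM and from 189 to 541 CPM, and Camp from 2.32 to 191 CPM and from 13.8 to 1225 CPM.

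Further genes shared this direction. Cyba went from 314 to 883 CPM at day 0 and from 359 to 725 CPM at day 28, and Ncf4, another oxidase subunit, from 65.0 to 166 CPM and from 96.1 to 193 CPM. Clec4a2, an inhibitory lectin, went from 39.5 to 357 CPM and from 82.3 to 300 CPM, and Mgst2, a microsomal glutathione transferase, from 30.2 to 221 CPM and from 68.5 to 176 CPM. The others were Dmkn, Cd52 and Cotl1, and, with most of their UMIs in a few cells, Ngp, the globins Hba-a1, Hba-a2, Hbb-bs and Hbb-bt, Jchain and Cd74. Without the cells rich in other lineages, 10 of the 19 genes were still called, and Ngp, Cd52, Cotl1, the 4 globins, Jchain and Cd74 were not. The globins, Jchain and Cd74 are on the lists that chose the cells left out, so their loss is not a separate result. The median over cells of the high tier was 192 and 236 CPM for the erythroid list and 99.0 and 161 CPM for the B-lineage list, close to 196 and 293 CPM and 119 and 162 CPM in the low tier.

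Azurophil granule genes did not follow the order in a common way. None of the 15 in the comparison was past 2-fold in both libraries, and the list medians were 0.47 and 0.09. Elane went from 11380 through 14971 to 16714 CPM at day 0 and from 9740 through 11435 to 12769 CPM at day 28. Mpo went up from 6403 to 8186 CPM at day 0 and down from 4467 to 3969 CPM at day 28, and Ctsg was nearly level, at 4329 and 4296 CPM and at 4185 and 3886 CPM. In each tier, Mpo was lower at day 28 than at day 0. The tiers were cut within each library and cover different S100a8 levels, so cells at equal levels were not compared. Cebpe went from 160 to 355 CPM and from 179 to 285 CPM.

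Some early genes were lower at the high end of the order, among them Cd34, Sox4 and Myc, which lie under the 100 CPM minimum of the comparison and are described only. The early progenitor list had 1 gene above that minimum and 0 past 2-fold. Cd34 went from 144 through 31.4 to 0 CPM at day 0 and from 65.9 through 12.1 to 5.97 CPM at day 28. Sox4, a factor of immature progenitors, went from 83.6 to 12.4 CPM and from 37.5 to 8.21 CPM, and Myc from 72.0 to 34.7 CPM and from 29.6 to 9.71 CPM. Npm1 went from 2165 to 1066 CPM and from 2430 to 1514 CPM, and of the 11 ribosome biogenesis genes 0 were past 2-fold in both libraries, with list medians of -0.72 and -0.69. The summed early progenitor list had a median over cells of 1020 CPM in the low and 311 CPM in the high tier at day 0, and of 606 and 298 CPM at day 28. The 4 genes past 2-fold lower in both libraries were Lgals1 (galectin 1), Slc25a4 (a mitochondrial ADP/ATP carrier), Hmgn1 (a nucleosome-binding protein) and Ngfrap1. Top2a, a gene of dividing cells, was at 137 and 102 CPM in the low and high tier at day 0 and at 142 and 139 CPM at day 28.

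**Figure D4:**
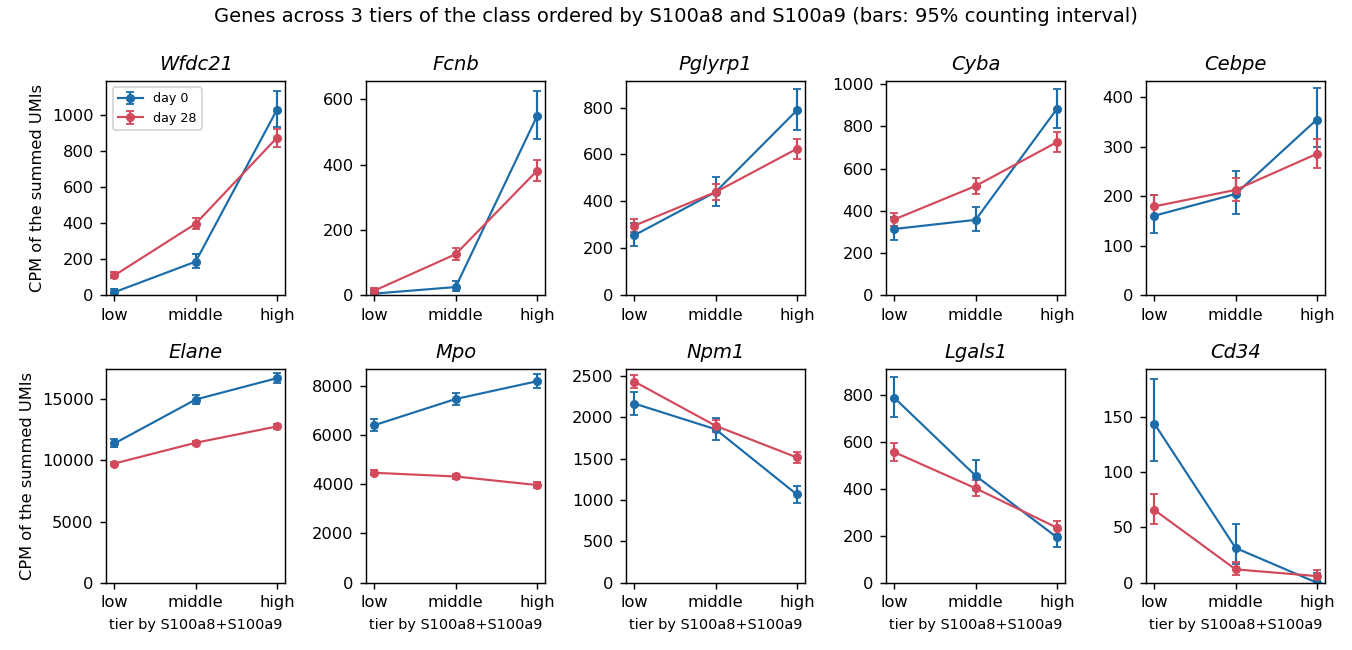
Lines join the level of each gene, in CPM of the summed UMIs, over the low, middle and high tier of the class by S100a8 plus S100a9 (18, 20 and 18 cells at day 0, in blue; 65, 66 and 65 at day 28, in red); bars are 95% Poisson intervals. Wfdc21, Fcnb, Pglyrp1, Cyba and Cebpe climb in both libraries, Npm1, Lgals1 and Cd34 descend in both, and Mpo climbs at day 0 only.

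Pairs of granule genes varied together to different degrees over single cells. After thinning to 4000 UMIs, Spearman's rho of Elane with Prtn3 was 0.456 over the 56 day 0 cells and 0.396 over the 196 day 28 cells, and that of Elane with Ctsg 0.316 and 0.441. For Elane with Mpo it was 0.574 at day 0 and 0.0422 at day 28. S100a8 and S100a9 stood at 0.743 and 0.828, S100a8 with Wfdc21 at 0.703 and 0.703, and S100a8 with Npm1 at -0.507 and -0.456. The cells of a library share its preparation and their fixed total, so these are descriptions only.

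Beside the F13a1 progenitors, the class was marked by azurophil granule genes and by low levels of monocyte genes. The F13a1 limit and the Elane minimum chose both sides of this comparison, so its counts are descriptions. Of 2159 genes with a mean of 50 CPM, 68 reached 2-fold higher in the class than in the 932 F13a1 progenitors in both libraries (3.15%) and 118 reached 2-fold lower (5.47%). Azurophil granule genes accounted for 11 of 17 higher and 1 lower, and monocyte genes for 12 of 14 lower. Other neutrophil lists were split, with 3 higher and 2 lower of 8 specific granule genes. Late neutrophil genes had 2 higher and 1 lower of 5, and lineage factors 2 higher and 4 lower of 11. The specific granule list summed to 2440 and 2529 CPM in the class and to 6936 and 4361 CPM in the F13a1 progenitors. Its median log2 ratio of the class to the F13a1 progenitors went the other way, at 0.55 and 0.86. A sum is weighted by the most abundant genes, so it does not stand for the typical gene of the list. Irf8 was at 54.7 and 34.9 CPM in the class and at 695 and 455 CPM in the F13a1 progenitors, Csf1r, the receptor of macrophage colony-stimulating factor, at 4.69 and 3.91 against 96.2 and 55.7 CPM, and Lyz2 at 229 and 179 against 5874 and 3469 CPM. S100a4 followed the same pattern, at 5.47 and 13.6 against 527 and 424 CPM.

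The Elane-high barcodes that the F13a1 limit removed lay between these sides. They held Cebpe at 42.2 and 137 CPM, against 237 and 223 CPM in the class, Irf8 at 447 and 151 CPM and Lyz2 at 1043 and 538 CPM. Their Irf8, Csf1r (49.9 and 18.9 CPM) and S100a4 (67.8 and 28.4 CPM) were all lower at day 28 and their Cebpe higher, so that in these 4 genes the 76 removed cells of day 28 stood closer to the class than the 32 of day 0. Median depths were 23509 and 25695 UMIs. These cells overlap with the class in Elane, at 10520 and 9767 CPM.

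Barcodes with early progenitor genes and barcodes with Ltf UMIs both stood apart from the class. Cd34 Kit progenitors (156 barcodes with a UMI of both genes, at most 1 F13a1 UMI and under 1000 CPM Elane) held Cd34 at 386 and 293 CPM and Elane at 54.0 and 202 CPM. They were a mixed group and not 1 stage of the neutrophil path. Their basophil and mast cell list summed to 5085 and 949 CPM, against 234 and 179 CPM in the class. Their megakaryocyte list summed to 186 and 352 CPM, against 12.5 and 11.3 CPM. Cd34, Kit and low Elane chose them, so the counts beside the class are descriptions too. Of 2084 genes, 121 reached 2-fold higher in the class in both libraries (5.81%) and 84 reached 2-fold lower (4.03%), among them 11 of 11 early progenitor genes and 12 of 13 immediate early genes. In the 22 barcodes with 2 or more Ltf UMIs (17 at day 0, 5 at day 28), S100a8 reached 154581 and 174966 CPM, Ngp 39747 and 36986 CPM and Camp 45137 and 51960 CPM, while Elane was at 95.6 and 241 CPM and Mpo at 28.7 and 160 CPM. Cebpe was higher there than in the class, at 526 and 621 CPM. Median depth of these later cells was only 4584 and 4510 UMIs, beside 23029 and 21543.5 in the class.

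**Figure D5:**
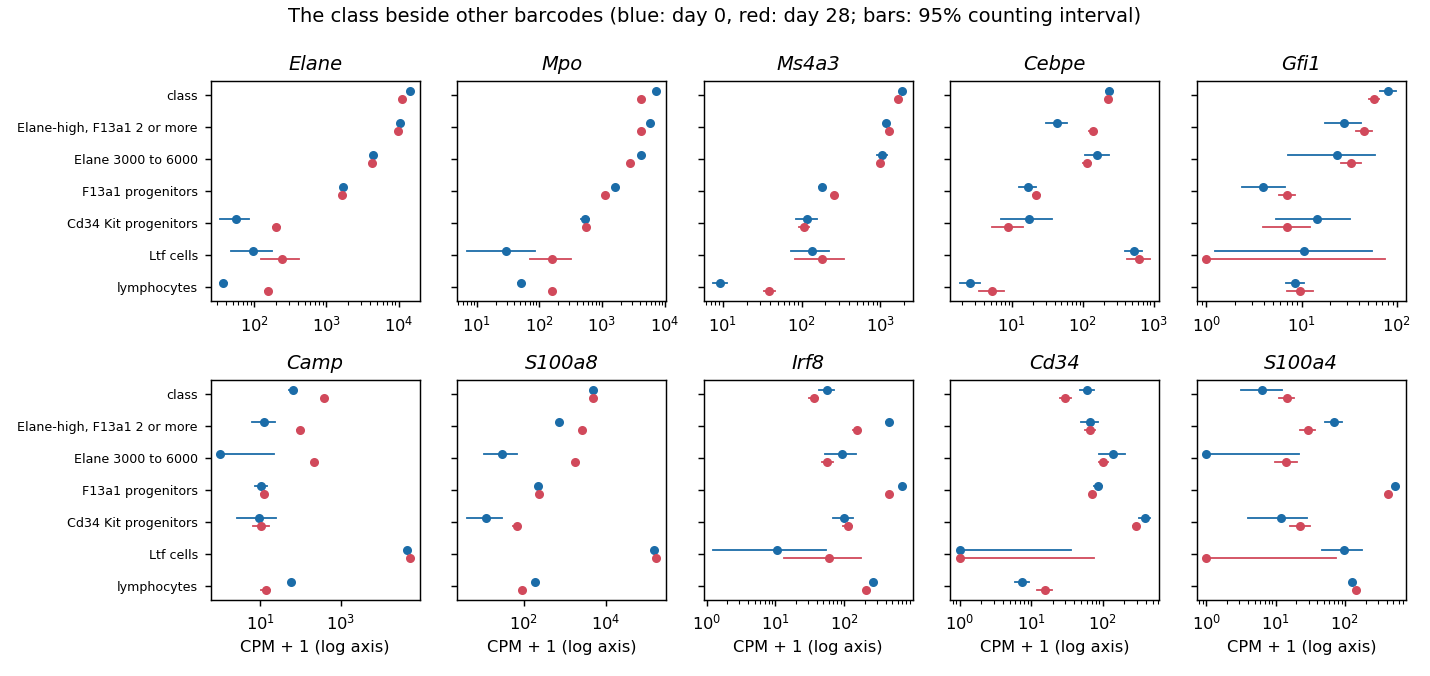
Rows are the class and 6 other groups of barcodes, and panels give 10 genes, as CPM + 1 of the summed UMIs on a log axis (blue day 0, red day 28; bars are 95% Poisson intervals). Elane and Mpo peak in the class, Irf8 and S100a4 in the F13a1 progenitors, Cd34 in the Cd34 Kit progenitors, and Camp and S100a8 in the Ltf cells.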

How the data were processed

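The deposited files hold raw UMI counts per gene and barcode, 1 matrix per library (27998 genes; 2668 and 2653 barcodes), which the authors made with Cell Ranger 2.1.1 and STAR (version not given in the sources used here) on mm10, per the submitters' processing notes. Reads were assigned by 3′ capture, so genes with near-identical copies can be split.

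Barcodes under 500 genes or over 10% mitochondrial UMIs were left out (2 and 17). UMIs were summed over the cells of a class in each library and given as CPM of the sum. Ratios of day 28 to day 0 have conditional exact binomial intervals, levels exact Poisson and shares exact Clopper-Pearson ones (95%). With 1 library a group there was no test: genes with a mean of 50 CPM are called past a fold of 2. The functions for ratios and thinning were tested on simulated data. PCR duplicates were already collapsed by UMI, and the intervals cover counting error only. Precision differs with depth: class UMIs were 1279473 and 4349966.

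Named genes are the 6 markers, S100a4, Itgam and Ptprc, every gene of 5 neutrophil lists, the highest, lowest and most abundant members of the other 24 lists, the 12 highest and 12 lowest ratios and the 15 leading genes. The genes past 2-fold between the S100a8 tiers, Gm10709, Pim1 and a few further members of the other lists were named after their values were seen. The class, its 29 gene lists and the other groups were chosen with earlier results of these data known. The order by S100a8 and the alternatives without cells rich in other lineages were likewise chosen after seeing the data. Doublets were scored with Scrublet (scanpy 1.11.5), which marked 0.150% and 0.226% of barcodes and so did not work as a caller; as an alternative, the 57 and 56 highest scores, of which 3 and 7 were in the class, were left out. Coordinates are GENCODE M21 (mm10), and 27645 of 27998 identifiers matched. Other analyses used Python 3.11.15, NumPy 2.4.6 and SciPy 1.17.1. The YFP transcript was not analysed here.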

Additional observations from a re-analysis of the deposited data

How the results depend on the processing

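No paired analysis was possible because each group is 1 library. The ratio of class shares, 3.54, moved to 1.83 with an Elane minimum of 12000 CPM and to 2.18 among barcodes with at least the lowest day 28 total; under 8 other settings it lay between 3.13 and 4.37. The counts of genes past 2-fold were 11 higher (0.483% of the genes compared) and 31 lower (1.36%). They became 35 (1.52%) and 114 (4.94%) with every cell thinned to 3000 UMIs, which leaves fewer UMIs per gene. At a minimum of 20 CPM they were 21 (0.475%) and 75 (1.70%), and at 200 CPM 6 (0.951%) and 11 (1.74%). Scaling by the median ratio gave 13 (0.559%) and 25 (1.08%). The cause of the rise after thinning was not tested. For the S100a8 tiers, the alternatives were chosen after seeing the data. The 4 lower genes became 7 without the cells rich in other lineages, 9 at a minimum of 50 CPM and 11 after thinning to 4000 UMIs. Of the 4, these settings kept 3 (Slc25a4 lost), 4 and 2 (Hmgn1 and Ngfrap1 lost). The 19 higher genes became 16, 26 and 16, with 10, 19 and 11 of the 19 kept. Thinning lost Fcnb, Camp, Ncf4 and Dmkn among others. Genes without a UMI in the low or high tier of a library were left out, so a lost gene is not read as level. Log2 ratios reversed without the cells rich in other lineages for Hba-a1 (0.42), Hba-a2 (0.91), Hbb-bs (0.58), Hbb-bt (0.28), Ngp (0.64) and Slpi (-1.02), with an Elane minimum of 12000 for Cd34 (0.034), Ngp (1.34) and Slpi (-0.63), and with one of 3000 for Prg2 (-1.41); the cause was not tested. The globins are on the erythroid list, which helped to choose the cells left out. The log2 ratio of Mpo stayed between -0.88 and -0.71 and that of Prtn3 between 0.18 and 0.38 under the 8 settings run. One library a group leaves all differences without a check between animals, and 56 day 0 cells limit what can be said of genes under 50 CPM.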

Other observations

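Genes of the basophil, annexin and early response lists are given as further values of the class. Hdc, histidine decarboxylase, was at 119 and 89.4 CPM, and Mcpt8, a basophil protease, at 67.2 and 47.6 CPM, although Cpa3, another gene of mast cells and basophils, was at 32.0 and 8.28 CPM. Lgals3 (galectin 3) had 8 UMIs at day 0 and 165 at day 28 (6.25 and 37.9 CPM, ratio 6.07, 3.01 to 14.3), against a ratio of 1.17 in the other barcodes, and no cell held more than 12.5% of its UMIs. Cxcl2, a chemokine gene of activated neutrophils, had 0 UMIs at day 0 and 85 at day 28, so its level was at least 8.33-fold higher against a floor of 3 UMIs over the day 0 cells, and 1 cell held 28.2% of them; in the other barcodes Cxcl2 was 3.34 times as high at day 28. Egr1, an immediate early gene, had 3 and 60 UMIs (ratio 5.88, 1.92 to 29.3), whereas its list had 0 of 6 genes past 2-fold and a median log2 ratio of -0.20. These 3 genes lie under the 50 CPM minimum and were picked after their values were seen.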
